A study of Mus musculus with 12 samples.

Results

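The DnaJ proteins, also called Hsp40 or J-domain proteins, are the co-chaperones that hand unfolded proteins to Hsp70. All genes whose array symbol is Dnaja, Dnajb or Dnajc followed by a number were taken, 45 of the 19938 genes that have a transcript cluster of their own on the array. A transcript cluster gathers the probes of 1 transcribed region. The family holds 4 Dnaja, 13 Dnajb and 28 Dnajc genes, and 2 of the symbols (Dnajc5b and Dnajc5g) end in a letter. Where a gene had several clusters, the brightest by its mean of the 12 arrays was used, so the choice of cluster rested on that mean and not on a difference between groups. The family itself was picked with results of these arrays known, and its counts are therefore a description.

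The septum of 6 lactating and 6 virgin mice was profiled, with 1 Affymetrix Mouse Gene 1.0 ST array per mouse. The lactating females had spent 2 weeks with a breeder male and were taken on postpartum days 6 to 8, the virgin females had been co-housed with other females for the same time, and all were about 70 days old. Both groups came from a line bred for high maternal aggression from outbred hsd:ICR stock, so the values describe that line, and the virgin mice were in mixed stages of the estrous cycle other than proestrus. The labels call the tissue microdissected septum, the protocol names its lateral part, and the study's methods describe the whole septum.

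Every DnaJ protein carries a J domain, a short helical module that docks on Hsp70 and makes it hydrolyse ATP, which locks Hsp70 onto its client. Nucleotide exchange factors then release the client. Class A and class B members bind unfolded proteins themselves, while class C members are a mixed group in which the J domain is joined to other modules that place Hsp70 at a given site, such as the endoplasmic reticulum (ER), mitochondria, the spliceosome or synaptic vesicles. Transcription of several cytosolic members is induced by heat shock factor and that of several ER members by the unfolded protein response.

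The septum of lactating mice had more transcript for 6 DnaJ genes and less for 2, and the higher genes encode co-chaperones of the cytosol (Dnaja4, Dnajb1 and Dnajb4), the ER lumen (Dnajb11 and Dnajc3) and the enzyme partner Dnajc12. The lower genes were Dnajc5g and Dnajb13, which are known mainly from testis and cilia. These counts are at an unadjusted p under 0.05 from limma, two-sided, on log2 of the intensity plus 16. Over all genes with 1 cluster each, 8.69% passed the same threshold, 3.86% higher and 4.83% lower, against 13.3% higher and 4.44% lower in the family. Over all clusters 7.95% passed, 3.26% higher and 4.69% lower. Among the 11462 genes above the median cluster intensity, 7.68% passed, 5.88% higher and 1.8% lower, and all 6 higher DnaJ genes lie among the 36 members above that median. After adjustment over all 35556 clusters limma called 0 members, with a lowest adjusted p of 0.619 for the family, and 0 clusters of any kind, where 2828 had an unadjusted p under 0.05. Both lower DnaJ genes lie among the 8476 genes at or below the median, of which 8.93% were lower. When each array's median was subtracted, the family split into 7 higher and 1 lower, and all genes into 6.8% higher and 2.76% lower. Quantile normalization and cyclic loess each left 4 higher and 1 lower, with 3.81% and 3.92% of all genes higher, and array weights left 4 higher and 2 lower, with 4.46% of all genes higher.

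The differences were small. Over the 45 genes the log2 difference, always lactating minus virgin, had a median of 0.03 and ran from −0.20 to 0.30, with 34 genes above 0 and 11 below. The median was −0.00425 over all genes and 0.0235 over the genes above the median intensity. Of all genes 47.9% had a difference above 0, against 75.6% of the members. This share was not counted among the genes above the median intensity alone, where most members lie. In arrays simulated with the spread of these 12, with 35556 clusters varying independently, 60% of clusters changed 1.1-fold and 90% of those changed 1.2-fold passed an unadjusted p under 0.05. In tissue RNA, fewer cells that express a gene and less RNA per cell cannot be told apart.

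**Figure D1:**
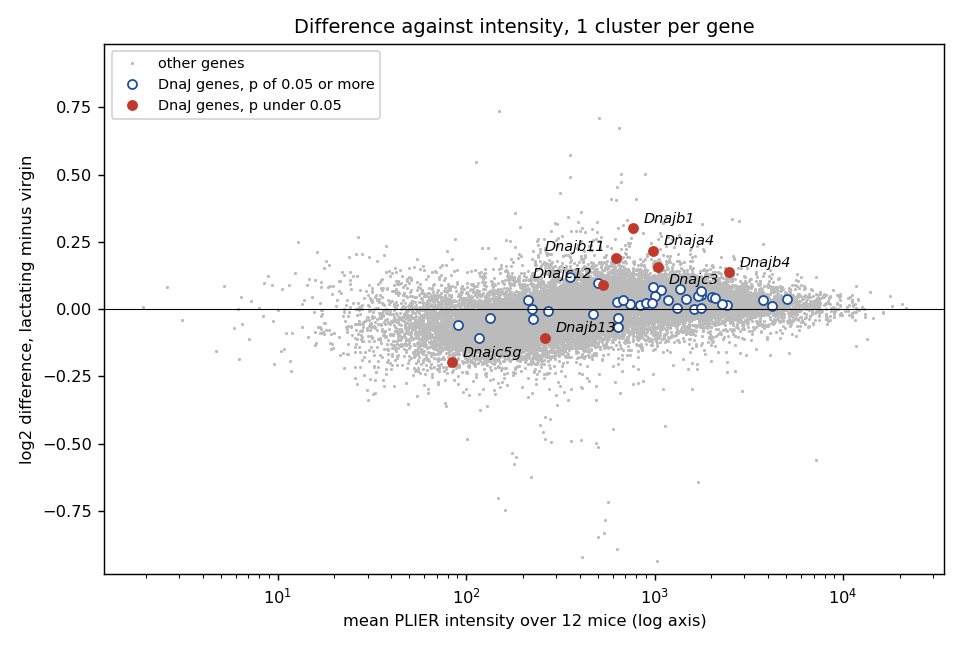
Log2 difference, lactating minus virgin (vertical axis), against the mean PLIER intensity over 12 mice (horizontal axis, log scale), 1 point per gene, with DnaJ genes as open blue circles (p of 0.05 or more) or filled red circles (p under 0.05) over all other genes in grey. The 6 higher DnaJ genes have mean intensities from 531 to 2471, and the 2 lower ones lie at 83.9 and 261, on the side where the grey cloud dips below 0.

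Dnaja4 is a class A co-chaperone of the cytosol, and it was the member with the smallest p. Its intensity ranged from 821 to 967 in virgin mice, with a median of 913, and from 978 to 1173 in lactating mice, with a median of 1035. Every lactating mouse was thus above every virgin mouse, which held for this DnaJ gene alone and for 0.251% of all genes, or 0.41% of those above the median intensity. The mean rose from 902 ± 50.4 (SD, n = 6) to 1050 ± 66.8 (SD, n = 6), which is 16.5% higher. On the log2 scale the difference was 0.22 (SE 0.0503; limma, unadjusted p = 0.000885). An exact permutation test over mice, two-sided, gave p = 0.00216, the smallest that 6 against 6 allows.

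Dnajb1, the classical heat-inducible Hsp40 of class B, had the greatest log2 difference of the family. In virgin mice its intensity ranged from 607 to 807 with a median of 693, and in lactating mice from 737 to 981 with a median of 849. In 4 of the 6 lactating mice it was above every virgin mouse, while virgin mouse 3, at 807, overlapped the lactating range. The means were 686 ± 73.8 (SD, n = 6) and 850 ± 95.6 (SD, n = 6), a rise of 23.8%, with a log2 difference of 0.30 and a 95% interval of 0.12 to 0.48 (limma, unadjusted p = 0.00314). The exact permutation test gave p = 0.0108.

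Dnajb4, another class B protein of the cytosol, differed less and over a wide spread. Its intensity in lactating mice ran from 2368 to 3106 with a median of 2480, and in virgin mice from 2196 to 2504 with a median of 2340. The groups overlapped in 3 of the 6 lactating mice, and lactating mouse 1 alone made up the top of the range. The log2 difference was 0.14 with an interval from 0.00190 to 0.27 (limma, unadjusted p = 0.0473). The call was lost when any of lactating mice 1, 2 and 3 or virgin mice 1, 2, 3, 4 and 6 was left out. The unadjusted p from limma then reached 0.0963. On linear intensities it was 0.0538, and under the other alternatives that lost the call it reached 0.18.

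The remaining cytosolic members of these classes did not pass the threshold. Dnaja1 had a log2 difference of 0.04 and Dnaja2 of 0.02, Dnajb2, a neuronal co-chaperone that brings clients to the proteasome, of 0.07, Dnajb5 of 0.08 and Dnajb6, a suppressor of aggregation, of 0.03. Of the 8 class A and B genes of the cytosol, 3 were higher and 0 lower, where 3.86% of all genes were higher and 4.83% lower. All 8 had a difference above 0, as had 47.9% of all genes. All but Dnajb6 lie above the median cluster intensity, where 5.88% of genes were higher and 1.8% lower. The median log2 difference of the genes above that median was 0.0235, and their share above 0 was not counted.

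**Figure D2:**
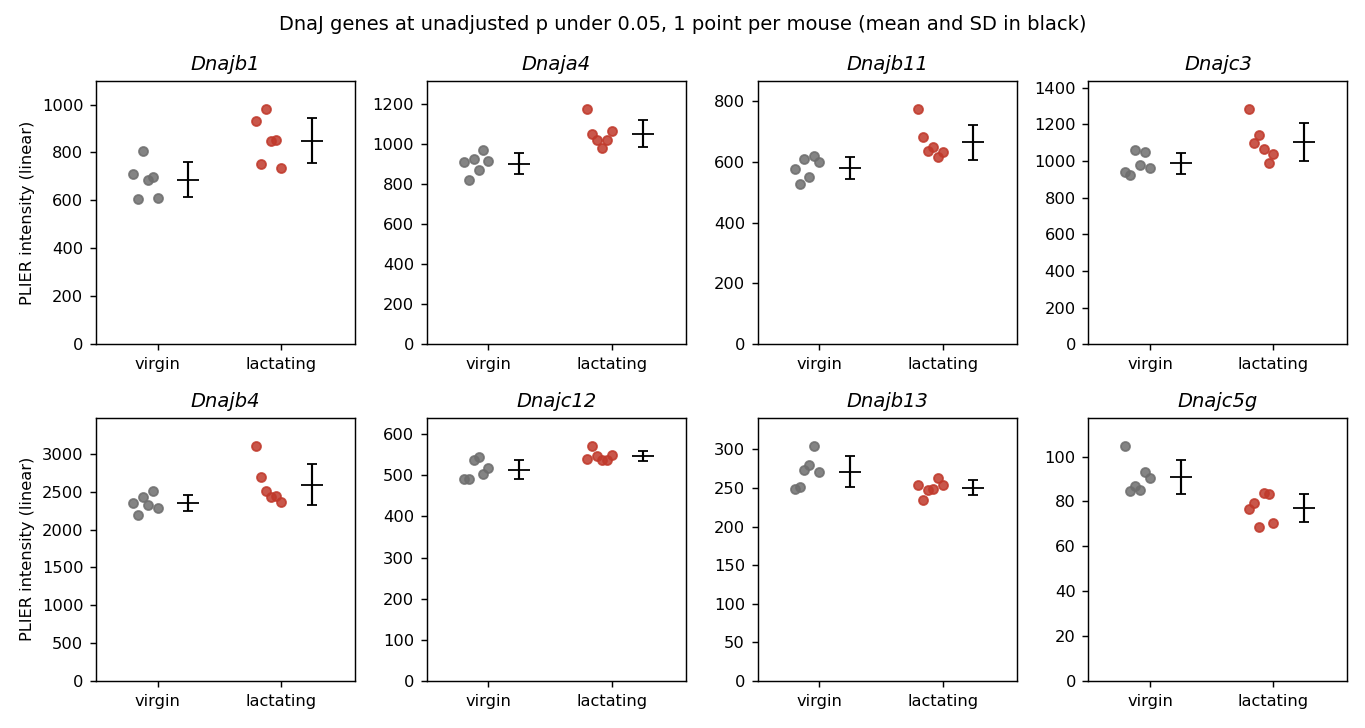
PLIER intensity (vertical axis, linear scale from 0) of the 8 DnaJ genes with an unadjusted p under 0.05, with each of the 6 virgin mice as a grey point and each of the 6 lactating mice as a red point, and black bars for mean and SD. Dnaja4 and Dnajc5g do not overlap between the groups, and for Dnajb4, Dnajb11 and Dnajc3 a lactating mouse stands at the top, at 3106, 774 and 1283.

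In the ER lumen, where J proteins serve the Hsp70 of that compartment (Hspa5, or BiP), 2 of 5 genes were higher and 0 lower. Over all genes the shares were 3.86% higher and 4.83% lower, and above the median intensity 5.88% and 1.8%. Dnajb11, which helps BiP to fold secreted proteins, had intensities of 529 to 618 in virgin mice, with a median of 589, and of 616 to 774 in lactating mice, with a median of 642. In 5 of the 6 lactating mice it lay above every virgin mouse, and the last fell just within the virgin range. The mean rose by 14.6%, from 581 ± 35.5 (SD, n = 6) to 665 ± 58.1 (SD, n = 6). The log2 difference was 0.19 (SE 0.0589; limma, unadjusted p = 0.00693), and the exact permutation test gave p = 0.00433.

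Dnajc3, or p58IPK, binds unfolded proteins for BiP and restrains the translation kinase PERK. It ranged from 925 to 1062 in virgin mice, with a median of 972, and from 992 to 1283 in lactating mice, with a median of 1084. In 4 of the 6 lactating mice it was above every virgin mouse. The log2 difference was 0.15, with an interval from 0.02 to 0.29 (limma, unadjusted p = 0.0241), and the exact permutation test gave p = 0.0238. The call was lost without virgin mouse 1 or virgin mouse 2, with an unadjusted p from limma of up to 0.0525, and after cyclic loess (0.0534). It was also lost after quantile normalization, with array weights and without lactating mouse 1 and virgin mouse 2 together. Leaving out the 3 arrays most extreme on the leading principal component lost it too. The unadjusted p from limma reached 0.16 among these. Of the others, the disulfide reductase Dnajc10 (ERdj5) had a log2 difference of 0.08, Dnajc1 of 0.03 and Dnajb9 (ERdj4), an inducible partner of BiP in ER stress, of 0.02. The interval for Dnajb9 was −0.06 to 0.10.

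Dnajc12 encodes a co-chaperone of the hydroxylases that make tyrosine, dopa and serotonin precursors. Its intensity lay between 491 and 544 in virgin mice, with a median of 510, and between 536 and 571 in lactating mice, with a median of 544. The lactating mice were closely grouped, at 547 ± 13.1 (SD, n = 6), and 3 of the 6 were above every virgin mouse. The rise over the virgin mean of 514 ± 22.6 (SD, n = 6) was 6.44%, with a log2 difference of 0.09 (limma, unadjusted p = 0.0305), and the exact permutation test gave p = 0.0173. Without lactating mouse 2 or without virgin mouse 1, 2 or 5 the call was lost, with an unadjusted p from limma of up to 0.0709. Under the other alternatives that lost it, among them the replicate block, the unadjusted p from limma reached 0.119.

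Both lower genes are known mainly from other tissues. Dnajc5g belongs to the cysteine-string proteins, whose better known member Dnajc5 works on synaptic vesicles. Its cluster was dim, at 84.8 to 105 in virgin mice, with a median of 88.5, and 68.7 to 83.7 in lactating mice, with a median of 78.0. Every lactating mouse was below every virgin mouse, as for 0.201% of all genes and 0.354% of those at or below the median intensity. The mean fell by 15.1%, from 90.8 ± 7.53 (SD, n = 6) to 77.1 ± 6.37 (SD, n = 6), with a log2 difference of −0.20 (limma, unadjusted p = 0.00408), and the exact permutation test gave p = 0.00216.

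Dnajb13, a radial spoke protein of motile cilia and sperm tails, ranged from 248 to 305 in virgin mice, with a median of 272, and from 235 to 264 in lactating mice, with a median of 251. In 3 of the 6 lactating mice it was below every virgin mouse. The log2 difference was −0.11 with an interval from −0.21 to −0.00118 (limma, unadjusted p = 0.0478). The call was lost without any of lactating mice 1, 2, 3, 4 and 6 or virgin mice 3, 4, 5 and 6, with an unadjusted p from limma of up to 0.115, and after quantile normalization (0.234). Of 6 markers of ciliated ependyma, 1 was lower (Ccdc153, log2 difference −0.13) and 0 were higher, against 4.83% lower and 3.86% higher over all genes. The summed intensity of these markers was 2186 to 2799 in the virgin and 2172 to 2599 in the lactating group. Their part in the difference of Dnajb13 was not tested. The other genes of this group, Dnajb3, Dnajb7, Dnajb8 and Dnajc5b, had log2 differences of 0.000863, −0.04, −0.04 and −0.06.

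**Figure D3:**
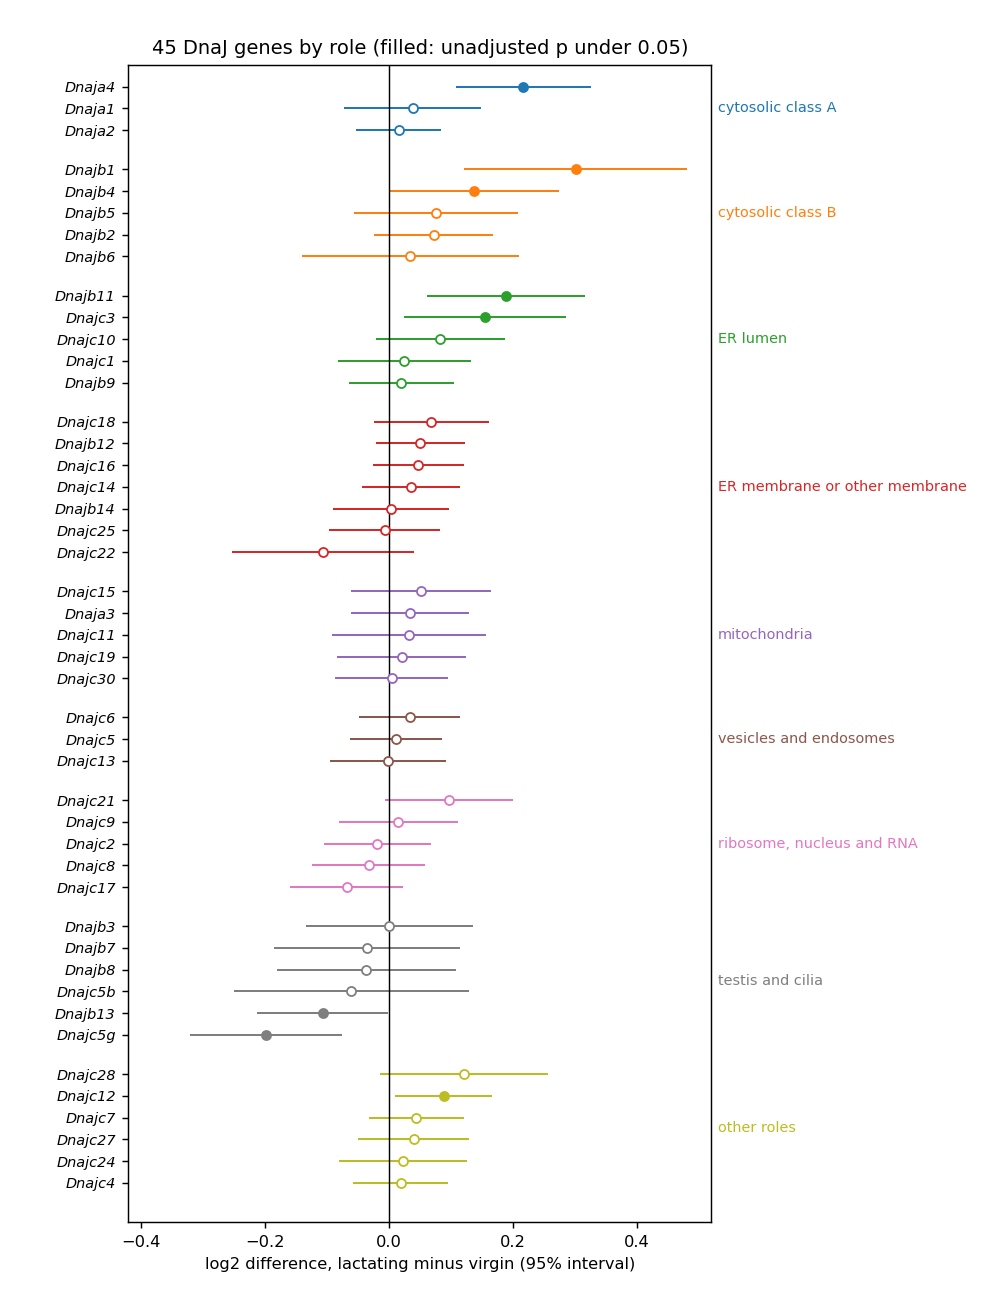
Log2 difference, lactating minus virgin (horizontal axis), of the 45 DnaJ genes, grouped and coloured by role, with the 95% interval from limma as bars and filled points for an unadjusted p under 0.05. Of the 45 points 34 (75.6%) lie to the right of 0, against 47.9% of all genes, which are not drawn. Most members lie above the median intensity, where the median log2 difference of all genes was 0.0235 and the share above 0 was not counted. The intervals of the 5 mitochondrial and the 3 vesicle genes all include 0.

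The roles in which no member passed the threshold were those of membranes, mitochondria, vesicles, and the nucleus and ribosome. At synaptic vesicles and endosomes, Dnajc5 (cysteine-string protein) averaged 4191 ± 133 (SD, n = 6) in virgin mice and 4225 ± 120 (SD, n = 6) in lactating mice, and its log2 difference of 0.01 had an interval from −0.06 to 0.09. Dnajc6 (auxilin), which uncoats clathrin vesicles in neurons, had a log2 difference of 0.03 with an interval from −0.05 to 0.12. For Dnajc13, which acts in endosomal sorting, the log2 difference was −0.00162.

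The 5 mitochondrial genes had log2 differences from 0.00471 for Dnajc30 to 0.05 for Dnajc15, with Dnaja3 (Tid1), the partner of mitochondrial Hsp70, at 0.03, the import motor gene Dnajc19 at 0.02 and Dnajc11, linked to the complex that organizes the inner membrane, at 0.03. In the group of the ribosome, nucleus and RNA, Dnajc21, which is needed for ribosome maturation, had the lowest p among the members that did not pass (limma, unadjusted p = 0.0647) with a log2 difference of 0.10. It passed in some alternatives, those on linear intensities, with array medians subtracted, and without virgin mouse 3 or 4. The splicing-related genes Dnajc8 and Dnajc17 were at −0.03 and −0.07, the ribosome-bound Dnajc2 at −0.02 and the histone chaperone Dnajc9 at 0.01.

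Among the 7 genes for proteins of the ER membrane or other membranes, the log2 differences ran from −0.11 for Dnajc22 to 0.07 for Dnajc18. Dnajb12 and Dnajb14, which pair with cytosolic Hsp70 in the degradation of ER membrane proteins, were at 0.05 and 0.00268. For Dnajb12, 4 of the 6 lactating mice were above every virgin mouse. Its exact permutation test gave p = 0.0455, and limma an unadjusted p of 0.154. Dnajc14, Dnajc16 and Dnajc25 had log2 differences of 0.04, 0.05 and −0.00677. The last genes, Dnajc28 at 0.12, Dnajc7 (a link between Hsp70 and Hsp90) at 0.04, Dnajc27 at 0.04, Dnajc24 (diphthamide synthesis) at 0.02 and Dnajc4 at 0.02, did not pass either. Besides Dnajc21, some other members passed in alternatives. Dnajc28 was higher without lactating mouse 5, virgin mouse 2 or virgin mouse 3, and Dnajb12 on linear intensities. Dnajc10 was higher without virgin mouse 3 and Dnajc18 without virgin mouse 4. Dnajc22 was lower without lactating mouse 5 or virgin mouse 5.

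For 3 genes the array holds several clusters of their own, and for Dnaja1 one of these passed the threshold and the brightest did not. The brightest Dnaja1 cluster averaged 5002 ± 238 (SD, n = 6) in virgin mice and 5144 ± 359 (SD, n = 6) in lactating mice, a log2 difference of 0.04. The other Dnaja1 cluster averaged 1257 ± 188 and 1459 ± 95.9, a log2 difference of 0.23 with an unadjusted p of 0.0326 from limma and 3 of 6 lactating mice above every virgin mouse. Another cluster, assigned to Dnaja1 and the microRNA gene Mir207 together, had a log2 difference of −0.05 (limma, unadjusted p = 0.333). The sign was thus positive for both clusters of Dnaja1 alone, whose difference in size was not tested, and negative for the shared cluster. The intervals of the brightest cluster (−0.07 to 0.15) and of the shared cluster (−0.16 to 0.06) both included 0. For these clusters the sign of the difference is therefore open. For Dnajc13 the 15 clusters had log2 differences from −0.04 to 0.09 and 0 of them passed. The 2 clusters of Dnajc3 hold identical values and count as 1 measurement. Dnajb6 has 1 cluster of its own, with a mean of 213. The 4 clusters shared between Dnajb6 and the predicted gene Gm4247 had means of 6088 to 7282 and log2 differences of 0.04 to 0.06, each with an unadjusted p above 0.05.

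The same mice stood at the ends of the range for most of the higher genes. Virgin mouse 2 was the lowest of the 12 mice for all 6, and lactating mouse 1 was the highest for 4 of them (Dnaja4, Dnajb4, Dnajb11 and Dnajc3), with lactating mouse 3 the highest for Dnajb1 and lactating mouse 2 for Dnajc12. Averaged over these 6 genes, the log2 deviation from each gene's mean was 0.25 in lactating mouse 1 and −0.20 in virgin mouse 2, with the other mice between −0.11 and 0.11. Virgin mouse 3 was the virgin mouse nearest to the lactating group, at 0.00248, and lactating mouse 6 the lactating mouse nearest to the virgin group, at 0.0167. These 6 genes were picked as higher in lactating mice, so their average is bound to differ between the groups. Averaged over all 45 genes, the groups overlapped. Virgin mice 3 and 4 were then at 0.0104 and 0.0220, above lactating mice 4, 5 and 6 at 0.00793, 0.00266 and 0.000685. Without both lactating mouse 1 and virgin mouse 2, an alternative added after the values were seen, 3 genes remained higher (Dnaja4, Dnajb1 and Dnajb11) and both lower genes remained lower. The log2 differences were then 0.16, 0.24 and 0.12, against 3.26% of all genes higher. Leaving out virgin mouse 1 alone also left these 3 genes higher. Lactating mouse 1 also had the highest mean deviation for the immediate early genes (0.55, of a list of 6) and the lowest for markers of excitatory neurons of cortex and hippocampus (−0.86). The part of these in the result was not tested.

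**Figure D4:**
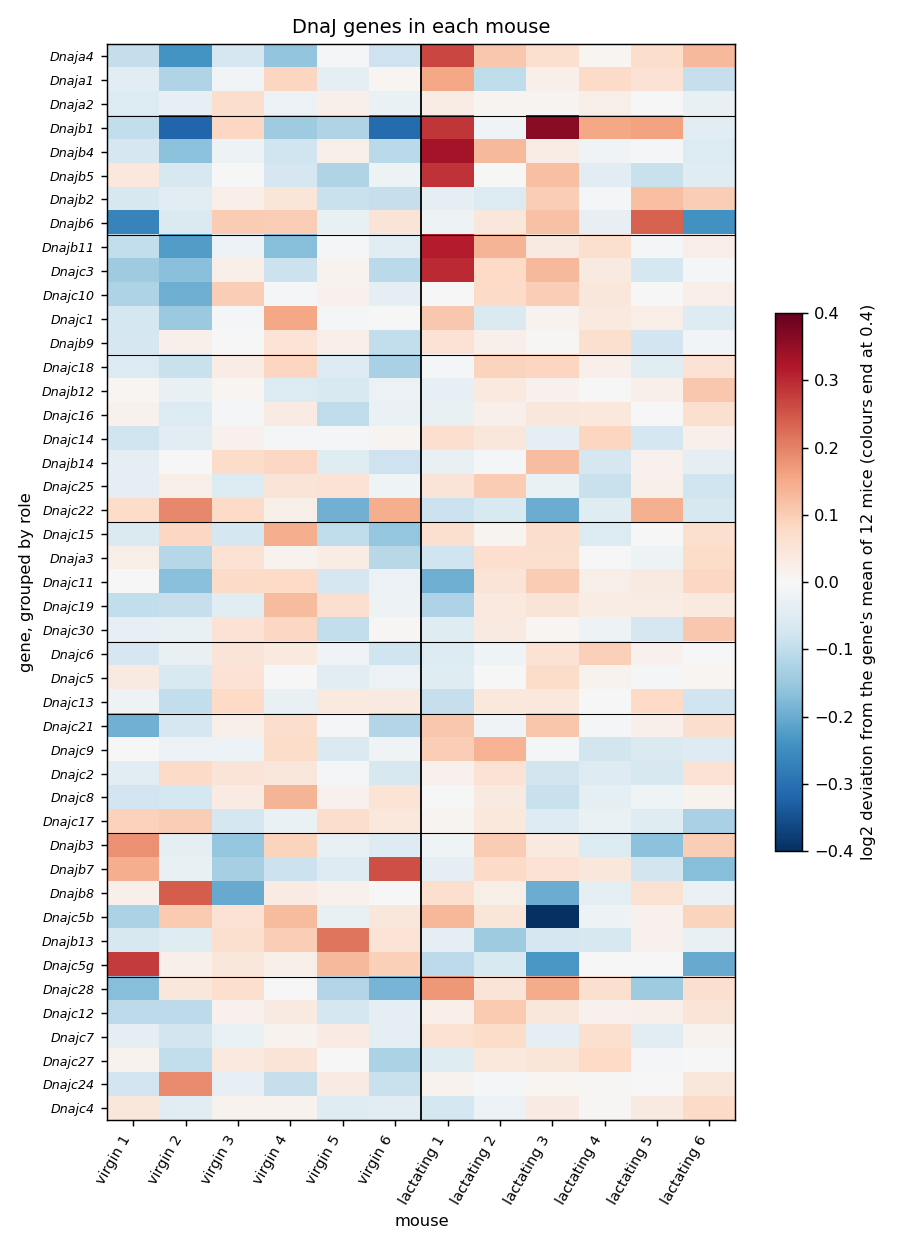
Log2 deviation of each of the 45 DnaJ genes (rows, grouped by role with black lines between groups) from its own mean of 12 mice, in 6 virgin and 6 lactating mice (columns), with blue below and red above the mean and colours that end at 0.4. Lactating mouse 1 is red and virgin mouse 2 blue in the rows of Dnaja4, Dnajb1, Dnajb4, Dnajb11 and Dnajc3, while the rows of Dnajc5, Dnajc6 and Dnajc13 stay pale on both sides of the line between the groups.

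Sequences at the start sites of DnaJ genes were examined for elements that heat shock factor and the ER stress factors are known to bind. Among the higher genes, Dnajc12 had no window and was not examined. RefSeq windows from 250 bases before to 50 bases after each start were at hand for 37 of the 45 genes, 50 windows in all (GRCm38.p6). The heat shock element is built of inverted GAA units, and its pairs were searched as GAANNTTC and TTCNNGAA, which read the same on both strands, and its triplet as TTCNNGAA followed at the same spacing of 2 bases by TTC, on both strands. The triplet contains both pairs. The ER stress element was searched as CCAAT and CCACG with 9 bases between them, and its second form as ATTGG and CCACG with 1 base between them, on both strands. The stretches below, 5′ to 3′ on the gene's strand with matches in capitals, are those of the higher cytosolic genes, and of Dnajc3 as the ER gene with a full match. For Dnaja4 the stretches surround the matches before 1 of its 2 listed starts, and for the others they end at the base before a start.
Dnaja4, chr9:54699458-54699487, plus strand: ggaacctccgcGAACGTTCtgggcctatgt
Dnaja4, chr9:54699496-54699525, plus strand: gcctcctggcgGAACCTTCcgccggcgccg
Dnajb1, chr8:83608045-83608174, plus strand: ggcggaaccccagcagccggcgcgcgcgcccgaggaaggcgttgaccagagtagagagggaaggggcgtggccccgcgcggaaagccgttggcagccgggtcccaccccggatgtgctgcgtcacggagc
Dnajb4, chr3:152193846-152193975, minus strand: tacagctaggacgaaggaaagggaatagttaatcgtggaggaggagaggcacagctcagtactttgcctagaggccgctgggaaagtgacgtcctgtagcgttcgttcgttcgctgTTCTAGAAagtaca
Dnajc3, chr14:118937802-118937931, plus strand: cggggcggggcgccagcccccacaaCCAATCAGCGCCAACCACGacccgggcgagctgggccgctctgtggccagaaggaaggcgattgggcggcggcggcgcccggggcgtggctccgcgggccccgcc

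Dnaja4 holds 2 matches of GAANNTTC, starting 90 and 52 bases before 1 of its 2 listed starts, and Dnajb4 holds 1 match of TTCNNGAA, starting 14 bases before 1 of its 2 listed starts. Pairs of this kind are common. GAANNTTC lies in 7.86% of all 32851 windows and in 12% of those of the family, and TTCNNGAA in 8.52% and 8%. The family's shares are near those of all windows, and pairs also occur in the windows of Dnaja1, Dnajb6, Dnajc10 and Dnajc27, which did not pass, and of Dnajc5g, which was lower. The triplet, found in 0.603% of all windows, occurs in the family before Dnajb6 alone, whose own cluster did not pass. The full ER stress element lies in 0.119% of all windows, and within the family in that of Dnajc3, starting 105 bases before the start. Its second form, in 0.0365% of all windows, lies within the family in that of Dnajb11, as ATTGGCCCACG beginning 7 bases after the start. The windows of Dnajb1 hold none of these letters as spelled, which says nothing about the factor. A match is a description of letters and not a bound site.

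Around the family, genes of the same chaperone cycle were counted from lists of Hsp70 genes, exchange factors, Hsp90 partners and other J-domain genes. Over all genes 3.86% were higher and 4.83% lower, and of those above the median intensity 5.88% and 1.8%. Of 10 measured Hsp70 genes, 3 were higher and 0 lower, with a median log2 difference of 0.06. These were Hspa5, the partner of Dnajb11 and Dnajc3, at 0.24 (limma, unadjusted p = 0.00289), the heat-inducible Hspa1a at 0.20 (0.00809) and Hspa2 at 0.21 (0.0155). Of 13 nucleotide exchange factors, 3 were higher and 0 lower, namely Hsph1 at 0.19, Bag1 at 0.12 and Hspa4l at 0.10, while the median was 0.03. Of 9 measured genes for Hsp90 and its co-chaperones, 5 were higher and 0 lower, with a median of 0.11. They include Stip1, which joins Hsp70 to Hsp90, at 0.14, with every lactating mouse above every virgin mouse, Chordc1 at 0.23 and Ahsa1, which stimulates the ATPase of Hsp90, at 0.18. Such a separation held for 0.251% of all genes, or 0.41% of those above the median intensity. The J-domain genes with other names, Sec63 of the ER translocon, the auxilin relative Gak and mitochondrial Hscb, were at 0.04, 0.02 and 0.09 and did not pass, nor did the factor gene Hsf2 at 0.06. These lists too were drawn up with results of these arrays known.

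The tissue and its neighbours were checked with marker lists. All 8 septal neuron genes, among them Gad1, Gad2, Trpc4 and Zic1, were measured, with 0 higher and 0 lower and a median log2 difference of 0.02. No deposited intensity was exactly 0, but the lowest was 3e-05, which is in effect no signal. Markers of cortical and hippocampal excitatory neurons varied between mice, with a mean deviation of 1.41 in lactating mouse 4 and a summed intensity of 2223 to 3775 in virgin mice and 2081 to 7518 in lactating mice. Without lactating mouse 4, the same 6 DnaJ genes were higher, against 3.47% of all genes, and 1 was lower, Dnajb13 having lost its call, against 3.81% of all genes. For the marker counts that follow, 3.86% of all genes were higher and 4.83% lower. Of 5 microglia markers 2 were lower (P2ry12 and Cx3cr1), at a summed intensity of 3071 to 3914 in virgin and 2975 to 3233 in lactating mice. Cx3cr1 was lower in every lactating mouse than in every virgin mouse, as were 0.201% of all genes. Of 6 choroid plexus markers 1 was higher (Clic6), at 1761 to 2125 and 1931 to 2153, and the 1 measured blood marker, Alas2, was higher, at 224 to 297 and 267 to 437. Markers of the medial septum, striatum, astrocytes, oligodendrocytes and endothelium had 0 higher and 0 lower genes. Those of the striatum had log2 differences from −0.23 for Rgs9 to −0.08 for Drd2, with a median of −0.16. Their summed intensity was 11865 to 14930 in virgin and 8620 to 14538 in lactating mice. The part of these cells in the DnaJ differences was not tested.

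How firmly each call stood under alternatives on these same arrays differed between the genes. Some alternatives, such as the replicate block and the variance trend, change the p and not the difference. Dnaja4, Dnajb1 and Dnajb11 kept their direction and an unadjusted p under 0.05 from limma in all 24 alternatives, and Dnajc5g in all 23 that it entered. Their highest p were 0.00612, 0.0448, 0.0268 and 0.0217. Dnajc3 and Dnajc12 each kept the call in 17 of 24, Dnajb4 in 8 of 24 and Dnajb13 in 9 of 23, and none of the 8 changed direction.

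**Figure D5:**
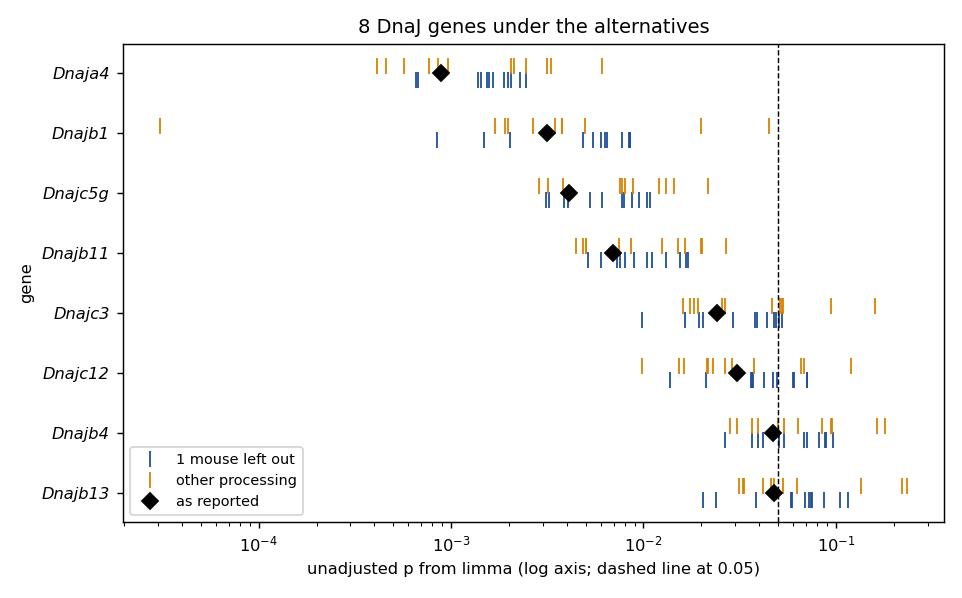
Unadjusted p from limma (horizontal axis, log scale, dashed line at 0.05) for the 8 DnaJ genes as reported (black diamonds), with 1 mouse left out (blue ticks) and under the other alternatives (orange ticks). All ticks of Dnaja4, Dnajb1, Dnajc5g and Dnajb11 lie left of the line, and those of Dnajb4 reach 0.18 and those of Dnajb13 0.234.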

How the data were processed

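The authors scanned 1 Mouse Gene 1.0 ST array per mouse, summarised probes into transcript clusters and normalized them with PLIER and a GC-bin background correction in Affymetrix Power Tools 1.12.0. The deposited values are intensities on a linear scale, with array medians of 320 to 339, and the pairwise correlations between arrays were 0.987 to 0.994. The build of the array annotation is not given in the sources used here. Groups were taken from the sample titles. From the deposited intensities, log2 of the value plus 16 was computed and limma 3.58.1 (R 4.3.3, lmFit and eBayes) was fitted to all 35556 clusters without covariates, with Benjamini-Hochberg adjustment over all of them. Gene symbols are those of the platform annotation, in which 21789 clusters carry 1 symbol, and all 45 members matched a current RefSeq symbol by identifier. Single genes were also compared by the exact two-sided permutation test over 924 assignments. The number of arrays limits the precision. The script was tested on simulated data.

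The members and lists were chosen with earlier results of these data known. Every DnaJ gene is named. Those with an unadjusted p under 0.05 are given with range, median, log2 difference and p, and some also with means and the permutation test. The 3 genes with the smallest p are named for the lists of Hsp70 genes, exchange factors and Hsp90 partners. The second Dnaja1 cluster, the shared clusters and the motifs were chosen after values were seen. Matching of replicate numbers was checked through residuals. RNA was extracted in matched pairs by the study's methods, but the pairs are not given. Genes of the lists that have no cluster of their own are not analysed here.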

Additional observations from a re-analysis of the deposited data

Results flagged for a closer look

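In 3 of 90 groups of 6 mice (45 genes, lactating and virgin), 1 mouse stood apart from the rest, where chance flags about 1 group in 20, or 4.5 of 90. The gap to the nearest mouse, as a share of the group's range on the log2 scale, was 0.863 for the mitochondrial import gene Dnajc19 in lactating mouse 1 (820, with the next mouse at 913). It was 0.732 for Dnajc11, also mitochondrial, in the same mouse (590, next 688), and 0.74 for the dim gene Dnajc5b in lactating mouse 3 (61.4, next 88.3).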

How the results depend on the processing

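Beside the 6 higher and 2 lower DnaJ genes, where 3.86% of all genes were higher and 4.83% lower, replicate number as a block gave 4 and 2 (3.37% and 5.75%), with 4 of the 6 shared and without Dnajb4 and Dnajc12. Mice with the same number had residuals that correlated above 0.1 in 2 of 6 numbers, with 0.25 as the highest. This does not settle whether the numbers carry the pairing. With the block, the unadjusted p from limma was 3.07e-05 for Dnajb1, 0.00245 for Dnaja4 and 0.0198 for Dnajb11. Without it, these were 0.00314, 0.000885 and 0.00693. The count of higher genes was 3 without the 3 arrays most extreme on the leading principal component, where 1.34% of all genes were higher, and 3 without lactating mouse 1 and virgin mouse 2 (3.26%). It was 4 after quantile normalization (3.81%), cyclic loess (3.92%) and array weights (4.46%), and 7 on linear intensities (5.92%) and with array medians subtracted (6.8%). With 1 mouse left out it ran from 3, without virgin mouse 1 (3% of all genes), to 8, without virgin mouse 3 (4.81%). The count of lower genes was 1 after quantile normalization, with array medians subtracted, after cyclic loess, with a variance trend and robust estimation, for symbols ending in digits only and without those 3 arrays. It was 0 among clusters above the median intensity, where neither lower gene is tested, and 1 to 3 with 1 mouse left out. The median log2 difference of the family moved from 0.0325 to 0.056 with array medians subtracted, where that of all genes moved from −0.00425 to 0.0193. It was 0.0153 after quantile normalization, 0.0173 after cyclic loess and 0.0126 without those 3 arrays, and ran from 0.0183 to 0.0443 with 1 mouse left out. The causes were not tested. Dim clusters such as that of Dnajc5g limit what these arrays can show.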
